A study of Mus musculus with 8 samples.

Results

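The long noncoding RNAs Malat1, Neat1, Meg3, Rian, Mirg, Miat, Snhg11 and Gas5 were examined in the mouse cerebral cortex after chronic hypoperfusion. They are 8 of the 54752 genes in the count tables and were chosen by symbol, as long noncoding RNAs known from brain. All 8 were found, and all 8 passed the filter on low counts that left 17136 genes for testing. RNA-seq was done on the right cerebral cortex of 8 wild-type male C57BL/6 mice (the J substrain in the study's methods), recorded as 14 weeks old, with 1 mouse per library. The 4 BCAS mice had bilateral carotid artery stenosis, in which a microcoil narrows each common carotid artery, and the 4 Sham mice had the same surgery with no coil. Tissue was taken 3 weeks after surgery, from the side that carried the narrower of both coils. The libraries were made from purified mRNA, and the total counts ranged from 16759364 to 21794435 per library. The model lowers blood flow to both hemispheres, and 1 piece of cortex per mouse was sequenced in bulk.

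Long noncoding RNAs are transcripts that act, as far as they act at all, as RNA. Malat1 and Neat1 are neighbouring genes whose RNAs stay in the nucleus, Malat1 in the nuclear speckles that store splicing factors and Neat1 as the scaffold of the paraspeckles. Meg3, Rian and Mirg lie in a row in the imprinted Dlk1-Dio3 domain, are expressed from the maternal allele and carry snoRNAs and microRNAs. Miat is a nuclear RNA of neurons with repeats that splicing factors bind, Snhg11 is a snoRNA host gene of neurons, and Gas5 is a ubiquitous snoRNA host gene whose spliced RNA is removed by nonsense-mediated decay during translation.

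Levels are given as CPM, the count scaled to a common library size with TMM factors. After BCAS, Neat1 and Gas5 rose, and no member fell at an adjusted p under 0.05. Neat1 reached 2.81-fold and Gas5 1.31-fold of the Sham level. Rian, Miat, Mirg, Snhg11 and Meg3 had lower means in BCAS mice, at 0.67- to 0.80-fold of Sham, with adjusted p-values between 0.0531 and 0.239, and Malat1 was at 1.03-fold (edgeR quasi-likelihood test, Benjamini-Hochberg adjusted). At an unadjusted p under 0.05 in this fit, Rian and Miat were lower, as were 21.4% of all tested genes, and Neat1 and Gas5 higher, as were 24.8%. DESeq2 and limma-voom each put 1 member, Rian, lower after adjustment, beside 18.2% and 13.7% of all tested genes. Thus 2 of 8 members rose, against 19.2% of all tested genes, and 0 of 8 fell, against 12.8% of all tested genes. At the study's stricter call, which also asks for an absolute log2 fold change above 1, 1 member was higher (background 11.0%) and 0 were lower (background 1.28%). The values of the 4 BCAS mice did not overlap those of the 4 Sham mice for 3 members, Neat1, Gas5 and Rian, and the same held for 34.8% of all tested genes. The median log2 fold change of all tested genes was -0.0063.

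**Figure D1:**
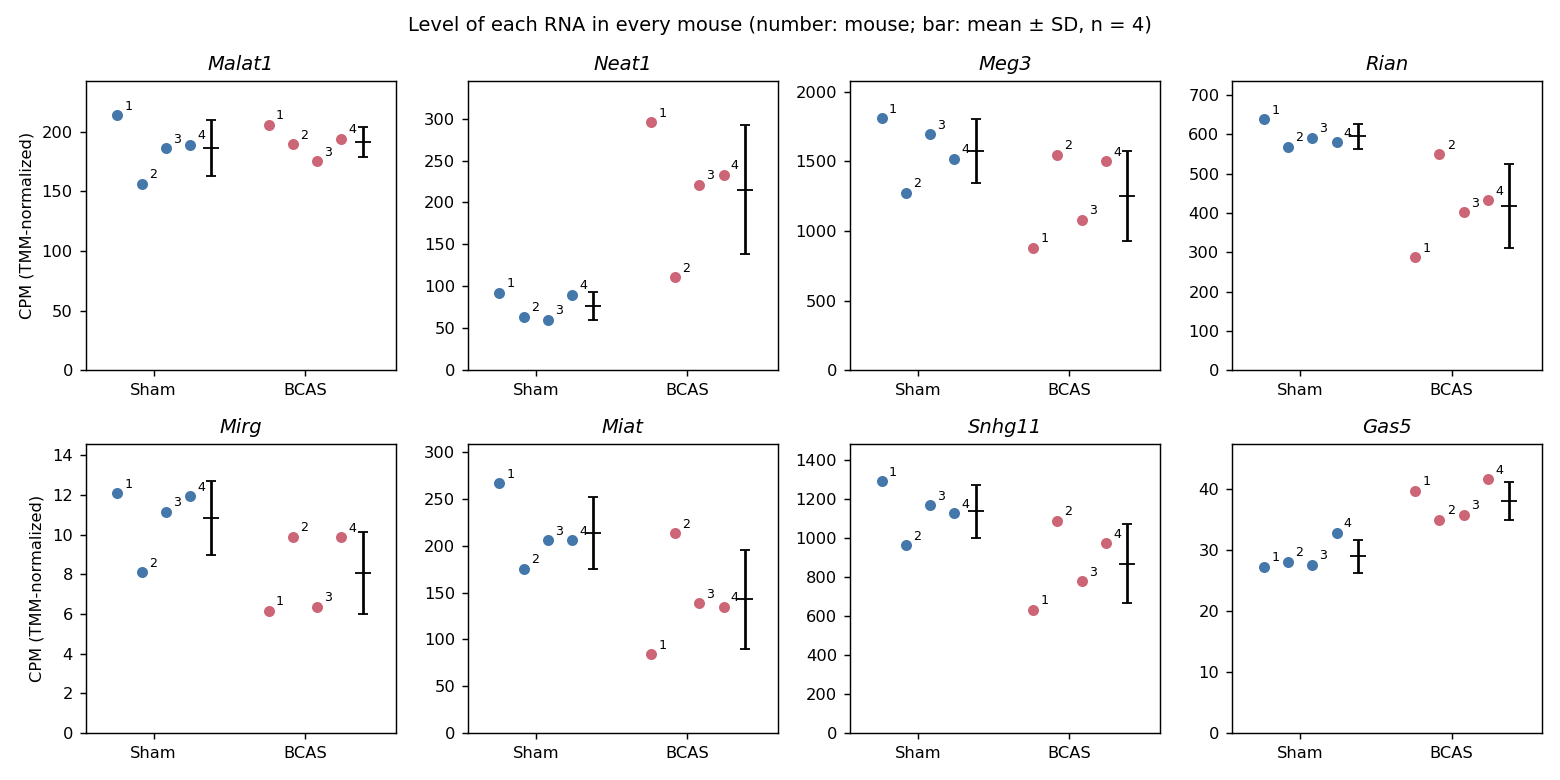
Level of the 8 RNAs in each mouse, as TMM-normalized CPM (y axis from 0) for Sham (blue) and BCAS (red). Numbers name the mouse and black bars show the mean ± SD (n = 4). Neat1 and Gas5 sit above, and Rian below, all Sham mice in all 4 BCAS mice.

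**Figure D2:**
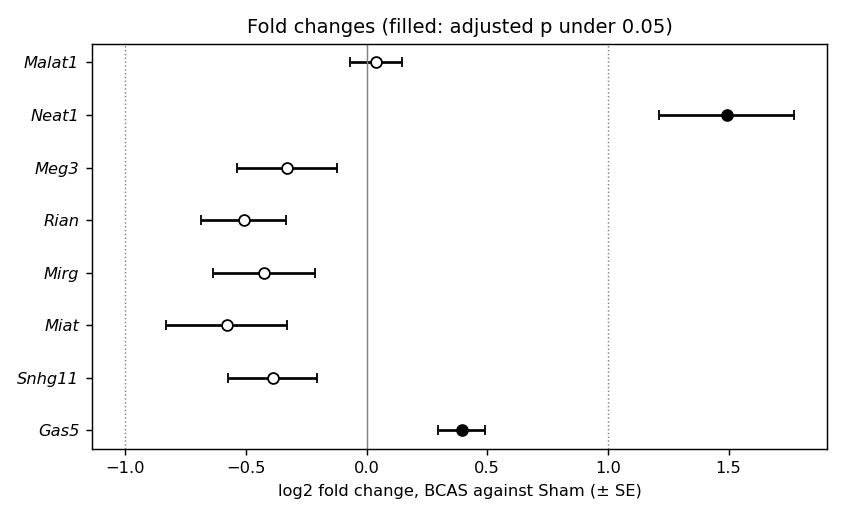
Log2 fold change of BCAS against Sham (x axis) for each RNA with its standard error from the edgeR fit. Filled points passed the test, and dotted lines mark an absolute log2 fold change of 1. Neat1 stands at 1.49 and Gas5 at 0.39, and the other 6 points are open.

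The label "abundant" held for part of the group. In Sham cortex Meg3 ranked 27 and Snhg11 ranked 70 by CPM among the 17136 tested genes, and Rian ranked 200. Mirg ranked 10220 with 10.8 ± 1.86 CPM (SD, n = 4), so that only 40.4% of the tested genes were lower, and Gas5 ranked 6862 with 29.0 ± 2.63 CPM. Per kilobase of annotated exon, the Sham level was 133 ± 15.95 CPM for Snhg11, 87.0 ± 12.8 for Meg3, 32.6 ± 1.70 for Rian, 26.7 ± 3.36 for Malat1, 23.0 ± 4.13 for Miat, 7.70 ± 0.70 for Gas5, 3.69 ± 0.81 for Neat1 and 1.49 ± 0.25 for Mirg. In that order only the neighbours Malat1 and Miat overlapped among the Sham mice. In BCAS mice the per-kilobase level of Neat1 was 10.4 ± 3.70 CPM and that of Gas5 10.1 ± 0.84, and these neighbours overlapped, as did Snhg11 with Meg3, Malat1 with Rian, Rian with Miat and Miat with Neat1. The libraries were made from purified mRNA, and how fully RNAs without a poly(A) tail entered them was not measured. For Neat1 the divisor was all 20771 exon bases, of which the model of its short form, described below, has 14.5%. The 8 RNAs together took 0.310% to 0.412% of the counts in Sham and 0.254% to 0.378% in BCAS libraries.

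All exon coordinates are those of the annotation in the count tables, on mm10. Malat1 (ENSMUSG00000092341.2, chr19:5795690-5802672, minus strand) and Neat1 (ENSMUSG00000092274.3, chr19:5824708-5845478, minus strand) are each annotated as 1 exon block. The imprinted genes Meg3 (ENSMUSG00000021268.17, chr12:109541001-109571726), Rian (ENSMUSG00000097451.10, chr12:109603940-109661716) and Mirg (ENSMUSG00000097391.8, chr12:109729764-109749460) follow each other on the plus strand. Miat (ENSMUSG00000097767.8) spans chr5:112213228-112229395 on the minus strand, Snhg11 (ENSMUSG00000044349.15) chr2:158375638-158386145 on the plus strand and Gas5 (ENSMUSG00000053332.13) chr1:161034422-161038539 on the plus strand.

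Pairs were counted without regard to strand, so reads of a gene and of its antisense partner cannot be told apart, and pairs on exon bases that 2 genes share were by default given to neither. Miat shared most, with 30.4% of its exon bases, which includes 24.3% shared with Gm26953 on the opposite strand, which held 4 to 12 counts per library. Gas5 shared 17.8% of its exon bases with 10 snoRNA genes, which lie wholly within its exons. Malat1 shared 13.8% of its exon bases, which includes 12.6% shared with genes on the opposite strand, and Meg3 shared 8.29%, which includes 6.79% shared with Gm26906 on the opposite strand. These partners also lie wholly within the exons of Malat1 or Meg3, so their counts of 0 follow from the counting rule and say nothing of their expression. For Mirg the share was 5.03%, with 9 microRNA genes that held at most 7 counts each per library, for Rian 3.42%, for Neat1 1.85% and for Snhg11 1.56%. The longest transcript of Snhg11 in GENCODE vM21 is typed as protein-coding.

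Neat1 had the largest change of the 8 members. Its level was 92.2, 63.7, 60.4 and 90.0 CPM in Sham mice 1 to 4 and 296, 111, 221 and 233 CPM in BCAS mice 1 to 4. Every BCAS mouse was above every Sham mouse, with BCAS mouse 2 nearest to the Sham range. The group means were 76.6 ± 16.8 and 215 ± 76.9 CPM (SD, n = 4), the log2 fold change was 1.49 (SE 0.28), and the adjusted p was 0.00710 by the edgeR quasi-likelihood test (Benjamini-Hochberg adjusted). Leaving out 1 mouse at a time gave log2 fold changes from 1.31 to 1.72 and adjusted p-values from 0.000107 to 0.0304. The raw counts behind these values ran from 1021 to 1623 in Sham and from 2156 to 6734 in BCAS libraries.

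Neat1 is made in a short form with a poly(A) tail and a long form without one, whose end is cut by RNase P, and the paraspeckle needs the long form. The deposited count is over the whole gene, so the forms cannot be told apart here. GENCODE vM21 has 4 transcript models of Neat1 (GRCm38, minus strand). The ends of a short and of the long model are shown because the forms end at different places. The short model also has 2 exons, where the long model has 1. The short model has 3004 bases (14.5% of the gene's exon bases) and ends with the 60 bases of chr19:5842307-5842366, in which capitals mark the polyadenylation signal AATAAA, 20 bases before the end. The long model has 20771 bases and ends with chr19:5824708-5824767, in which there is no AATAAA and capitals mark runs of A.
Neat1 short form: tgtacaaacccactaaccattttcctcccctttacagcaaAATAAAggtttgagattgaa
Neat1 long form: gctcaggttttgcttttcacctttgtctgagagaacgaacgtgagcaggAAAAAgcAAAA

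Malat1, the neighbour of Neat1, had 214, 156, 186 and 189 CPM in Sham mice 1 to 4. In BCAS mice 1 to 4 it had 206, 189.7, 175 and 194 CPM, all within the Sham range. The log2 fold change was 0.038 (SE 0.11), with an adjusted p of 0.801 in the same edgeR fit. Its sign turned to -0.045 without Sham mouse 2, the lowest Sham value. The ratio of Neat1 to Malat1 counts within a library, which no scaling can move, was 0.432, 0.408, 0.325 and 0.476 in Sham mice 1 to 4, all below the 1.44, 0.585, 1.26 and 1.20 of BCAS mice 1 to 4. The mean log2 ratio was 1.39 higher in BCAS mice, with an exact two-sided permutation p of 0.0286, the smallest that 4 against 4 mice allow, and 0.0857 after Benjamini-Hochberg adjustment over the 3 ratios tested.

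**Figure D3:**
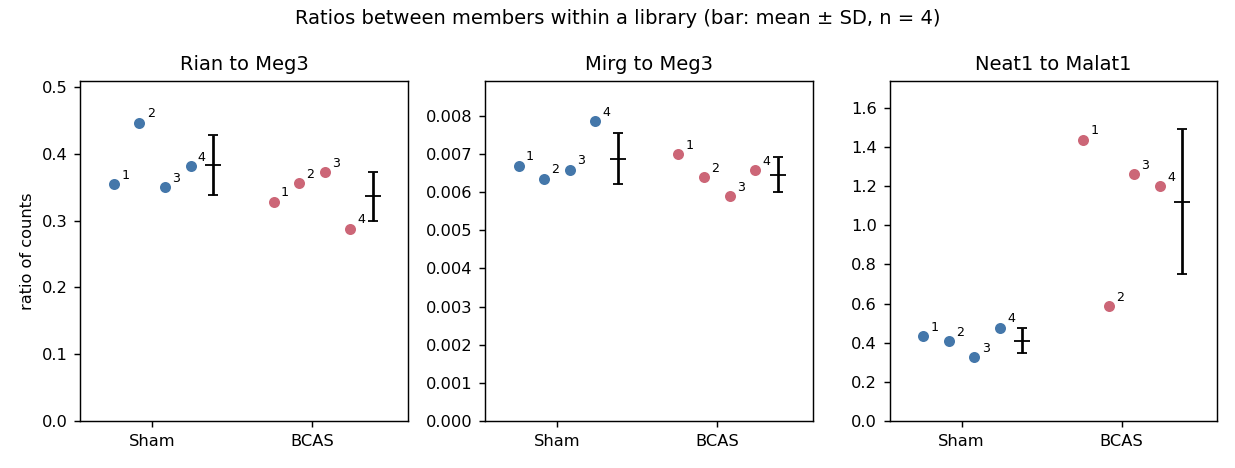
Ratio of counts within each library (y axis, from 0) for Rian to Meg3, Mirg to Meg3 and Neat1 to Malat1, with the mouse number and the mean ± SD (n = 4). The groups are apart for Neat1 to Malat1 and overlap for both ratios within the imprinted domain.

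Of the proteins of paraspeckles, the bodies that form on Neat1, 0 of 20 tested genes rose and 2 fell, beside 19.2% and 12.8% of all tested genes. The median log2 fold change of the 20 was -0.019. At an unadjusted p under 0.05, 2 were higher and 3 lower. Those that fell were Matr3, an RNA-binding protein of the nuclear matrix (-0.42, SE 0.13, adjusted p = 0.0383 by edgeR), and Pspc1, a core paraspeckle protein (-0.35, SE 0.11, adjusted p = 0.0428). Of the proteins of nuclear speckles, where Malat1 collects, 4 of 24 rose and 0 fell, with a median of 0.14. The rise was largest for Clk1, a kinase of splicing factors (0.67, SE 0.16, adjusted p = 0.0177 by edgeR), and the others were Clk4, Son and Srsf2. At an unadjusted p under 0.05, 7 of the 24 were higher and 0 lower, beside the 24.8% and 21.4% of all tested genes.

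Gas5 was the second member that rose. Its level was 27.3, 28.1, 27.6 and 32.9 CPM in Sham mice 1 to 4 and 39.7, 35.0, 35.8 and 41.6 CPM in BCAS mice 1 to 4. The groups did not overlap, and Sham mouse 4 was the highest of its group. The means were 29.0 ± 2.63 and 38.1 ± 3.15 CPM (SD, n = 4), the log2 fold change was 0.39 (SE 0.097) and the adjusted p was 0.0188 by the edgeR quasi-likelihood test (Benjamini-Hochberg adjusted). The spread among mice was small, with a coefficient of variation of 9.09% in Sham and 8.28% in BCAS mice. The call did not hold without Sham mouse 1 (0.36, adjusted p = 0.0619), without Sham mouse 2 (0.37, adjusted p = 0.0585) or without BCAS mouse 4 (0.35, adjusted p = 0.0536 in the edgeR fits), while 9 other settings with all mice kept it, with adjusted p-values from 0.00206 to 0.0382.

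Of the annotated starts of Gas5, the one with the feature for which the gene is known is shown. There the RNA begins with C and a run of pyrimidines, the 5′ terminal oligopyrimidine start of translation-coupled genes. The RefSeq window of this start, 300 bases on GRCm38.p6 at chr1:161034916-161035215 on the plus strand, holds 250 bases before the start and 50 from it on. Capitals mark the letters TGACGTCA, the palindromic cAMP response element, 46 bases before the start, and then the first 5 bases of the RNA.
Gas5: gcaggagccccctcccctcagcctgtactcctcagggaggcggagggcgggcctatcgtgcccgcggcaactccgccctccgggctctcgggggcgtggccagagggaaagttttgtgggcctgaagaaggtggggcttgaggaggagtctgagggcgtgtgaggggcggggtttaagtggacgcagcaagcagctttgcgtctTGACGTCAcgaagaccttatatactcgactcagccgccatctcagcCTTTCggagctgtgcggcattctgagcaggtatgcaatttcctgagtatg
The letters TGACGTCA were found in 588 of the 32851 RefSeq windows of this length (1.79%, either strand, which is the same for a palindrome) and a C followed by 4 pyrimidines at the start in 823 (2.51%). Of the 9 windows of the 7 members with an entry, 2 hold TGACGTCA, this one and one of Meg3, and 2 have the pyrimidine start, this one and that of Miat. The other window of Gas5, chr1:161034351-161034650, has a G at the start and holds neither. A match is a description of letters and no measure of use.

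The 10 snoRNA genes that lie within Gas5 on the same strand belong to a class of guides for the methylation of ribosomal RNA, and their counts of 0 follow from the counting rule, since all their bases are shared with Gas5. Their short RNAs are cut from introns, and retained-intron transcripts of the annotation make these introns part of the counted exons of Gas5. In GENCODE vM21, 8 of the 10 have the letters TGATGA (box C) in their first 20 bases and CTGA (box D) in their last 15, against 20.2% of all 1507 snoRNA transcripts of any class. Snord80 is annotated at both chr1:161037601-161037681 and chr1:161037604-161037680, and both entries are among the 8 and the 10. A pair with both boxes is shown (GRCm38, plus strand), Snord80 at chr1:161037601-161037681 and Snord47 at chr1:161038082-161038158, with the boxes in capitals.
Snord80: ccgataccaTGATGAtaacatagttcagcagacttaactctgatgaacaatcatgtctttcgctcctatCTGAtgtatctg
Snord47: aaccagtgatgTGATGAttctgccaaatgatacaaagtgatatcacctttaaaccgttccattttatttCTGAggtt

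Of 14 other snoRNA host genes tested, 1 rose and 0 fell, beside 19.2% and 12.8% of all tested genes. The median log2 fold change of the 14 was 0.16. The one that rose was Snhg18, from 1.29 ± 0.20 to 3.43 ± 0.93 CPM (log2 fold change 1.41, SE 0.25, adjusted p = 0.00607 by edgeR). Of 16 factors of nonsense-mediated decay, the pathway that removes spliced Gas5, 0 rose and 2 fell, Upf2 (-0.32, SE 0.090, adjusted p = 0.0281 by edgeR) and Smg5 (-0.27, SE 0.071, adjusted p = 0.0218). Of 7 core proteins of the snoRNPs, which carry box C/D snoRNAs, 0 rose and 1 fell, the assembly ATPase Ruvbl1 (-0.31, SE 0.082, adjusted p = 0.0242 by edgeR). At an unadjusted p under 0.05, 3 host genes were higher and 1 lower, 1 decay factor was higher and 3 lower, and 1 snoRNP protein was higher and 2 lower.

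The 3 RNAs of the imprinted domain had lower means in BCAS mice, and of these only Rian had groups that did not overlap. Rian, the host of a large cluster of brain snoRNAs, had 639.6, 569, 592 and 579.8 CPM in Sham mice 1 to 4 and 288, 549.7, 403 and 432 CPM in BCAS mice 1 to 4. All 4 BCAS mice were below the lowest Sham mouse, BCAS mouse 2 by the least. The means were 595 ± 31.1 and 418 ± 107 CPM (SD, n = 4), the log2 fold change was -0.51 (SE 0.18) and the adjusted p was 0.0531 by the edgeR quasi-likelihood test (Benjamini-Hochberg adjusted). The BCAS mice spread more widely, with a coefficient of variation of 25.7% against 5.22% in Sham. The value passed the threshold in 3 of 9 other settings, with adjusted p-values from 0.0193 to 0.0856, and also without BCAS mouse 1 (-0.36, adjusted p = 0.0416) and without BCAS mouse 2 (-0.66, adjusted p = 0.00563 in the edgeR fits).

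Meg3, the first gene of the row and one of the most abundant transcripts of the cortex, had 1807, 1275, 1693 and 1519 CPM in Sham mice 1 to 4. In BCAS mice 1 to 4 it had 879, 1546, 1081 and 1501 CPM. BCAS mice 1 and 3 were below all Sham mice and BCAS mice 2 and 4 within their range. The log2 fold change was -0.33 (SE 0.21), with an adjusted p of 0.239 by edgeR, and it ran from -0.18 without BCAS mouse 1 to -0.44 without BCAS mouse 2. Mirg, the host of a microRNA cluster at the far end, had 12.1, 8.11, 11.2 and 11.9 CPM in Sham and 6.15, 9.89, 6.37 and 9.86 CPM in BCAS mice, with the same BCAS mice 1 and 3 below the Sham range. It rested on 118 to 213 counts per library, and its log2 fold change was -0.43 (SE 0.21, adjusted p = 0.146 by edgeR).

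The ratio of Rian to Meg3 counts was 0.354, 0.446, 0.350 and 0.382 in Sham and 0.328, 0.355, 0.373 and 0.288 in BCAS mice, and the groups overlapped. The mean log2 ratio differed by -0.19 (exact two-sided permutation p = 0.171, adjusted 0.257), and by -0.11 without Sham mouse 2 or -0.12 without BCAS mouse 4. The ratio of Mirg to Meg3 counts ran from 0.00636 to 0.00787 in Sham and from 0.00590 to 0.00700 in BCAS mice. Its mean log2 ratio differed by -0.087 (exact two-sided permutation p = 0.4, adjusted 0.4), with SDs of 0.14 and 0.10 among the mice, and it differed by -0.021 without Sham mouse 4 and -0.043 without BCAS mouse 3.

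Meg3 is the first gene of the row, and a RefSeq window of it is shown for comparison with that of Gas5. The window is GRCm38.p6, chr12:109540746-109541045 on the plus strand, with 250 bases before the start and 50 from it on. Capitals mark TGACGTCA, 57 bases before the start. The other windows of Meg3 and of Gas5 and those of Rian, Mirg, Miat, Snhg11 and Malat1 do not hold these letters.
Meg3: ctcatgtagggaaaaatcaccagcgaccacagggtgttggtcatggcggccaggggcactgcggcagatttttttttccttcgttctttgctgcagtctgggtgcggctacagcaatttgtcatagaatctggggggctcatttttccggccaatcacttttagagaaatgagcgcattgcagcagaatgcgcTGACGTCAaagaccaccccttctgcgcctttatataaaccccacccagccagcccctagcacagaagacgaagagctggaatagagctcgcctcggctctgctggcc

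The RNAs of this row are also precursors of microRNAs, whose mature forms were not measured by these libraries. Mirg carries 9 microRNA genes that share at least 1 base with its exons and 5 in introns. Of the 9, Mir369 shares 1 of its 79 bases, Mir668 1 of 66, Mir382 2 of 76 and Mir412 12 of 80. Rian carries 4 microRNA genes in introns and Meg3 2 on exon bases. Mature sequences from RefSeq (GRCm38.p6) are shown for a few of them, to name what the precursors encode, with the seed (bases 2 to 8) in capitals. The first is carried by Meg3, the second by Rian and the others by Mirg. The last 2 share the seed GGUUGCC, and no other seed was shared among the mature microRNAs of the 3 hosts.
miR-770-5p: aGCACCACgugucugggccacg
miR-370-3p: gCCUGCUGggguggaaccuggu
miR-134-5p: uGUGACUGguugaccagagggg
miR-382-5p: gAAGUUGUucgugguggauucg
miR-485-3p: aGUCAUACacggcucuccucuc
miR-410-3p: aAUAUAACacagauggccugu
miR-453: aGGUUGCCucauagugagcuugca
miR-496a-5p: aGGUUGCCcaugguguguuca

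Of 9 tested genes of the Dlk1-Dio3 domain and its flanks other than the members, 0 rose and 3 fell, beside 19.2% and 12.8% of all tested genes. The median log2 fold change of the 9 was -0.11. The fall was largest for Begain, a postsynaptic protein encoded at the edge of the domain (-0.70, SE 0.17, adjusted p = 0.0165 by edgeR), and the others were Ppp2r5c and Wars in the flanks. Of 12 genes that cut or carry microRNAs, 1 rose and 0 fell. It was Prkra, a partner of Dicer (0.33, SE 0.097, adjusted p = 0.0328 by edgeR). At an unadjusted p under 0.05, 0 of the 9 genes of the domain and its flanks were higher and 4 lower, the 3 named and Dync1h1 in the flanks, and 3 genes of the microRNA pathway were higher and 2 lower.

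Miat had the lowest mean of BCAS relative to Sham. Its level was 267, 176, 206 and 206 CPM in Sham mice 1 to 4 and 84.4, 214, 139 and 135 CPM in BCAS mice 1 to 4. BCAS mice 1, 3 and 4 were below the lowest Sham mouse, and BCAS mouse 2 was above 3 of the 4 Sham mice. The log2 fold change was -0.58 (SE 0.25), with an adjusted p of 0.102 by edgeR's quasi-likelihood test. Without BCAS mouse 1 it was -0.38. Without BCAS mouse 2 it was -0.83 with an adjusted p of 0.00795, and the adjusted p over the 9 other settings ran from 0.0661 to 0.150.

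Miat is known for copies of the letters ACTAAC, which resemble the intron branch point that splicing factor SF1 and the related Qk recognise. They are shown because they set Miat apart from the other members. The longest GENCODE vM21 transcript of Miat, of 9163 bases, holds ACTAAC 11 times in its sense direction, and Neat1, of 20771 bases, holds it 4 times. The longest transcripts of the other members hold it at most 1 time each. The window with the most copies in Miat, bases 4922 to 5161 of the transcript, has 4 copies, here in capitals, and 5 of 29204 noncoding transcripts of at least 240 bases (0.0171%, transcripts of Miat included) have a window of 240 bases with as many.
Miat: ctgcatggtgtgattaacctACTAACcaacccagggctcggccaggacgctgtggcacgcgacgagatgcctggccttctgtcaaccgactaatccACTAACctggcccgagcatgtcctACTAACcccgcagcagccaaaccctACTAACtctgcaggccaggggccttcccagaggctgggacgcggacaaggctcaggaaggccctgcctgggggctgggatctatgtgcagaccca
Of 5 splicing factors reported to bind Miat or its repeats, and their relatives, 1 rose, Qk (0.62, SE 0.16, adjusted p = 0.0209 by edgeR), an RNA-binding protein best known from glia, and 0 fell. Among all tested genes, 19.2% rose and 12.8% fell.

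Snhg11, a neuronal snoRNA host gene, had 1291, 962, 1167 and 1127 CPM in Sham mice 1 to 4. In BCAS mice 1 to 4 it had 631, 1089, 778 and 974 CPM. BCAS mice 1 and 3 were below the Sham range, and BCAS mice 2 and 4 within it. The log2 fold change was -0.39 (SE 0.18), with an adjusted p of 0.128 by edgeR's quasi-likelihood test, and without BCAS mouse 2 it was -0.51 with an adjusted p of 0.0337. Without BCAS mouse 1 it was -0.25.

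Of 22 other long noncoding RNAs known from brain, 1 rose and 8 fell, beside 19.2% and 12.8% of all tested genes. The median log2 fold change of the 22 was -0.31. The largest fall was that of Dalir, a neuronal transcript next to Pou3f3, from 5.13 ± 1.37 to 1.77 ± 0.72 CPM (log2 fold change -1.54, SE 0.33, adjusted p = 0.0114 by edgeR). Gm26917 rose (0.61, SE 0.16, adjusted p = 0.0227). The other 7 that fell were Pantr1, Peg13, 1700020I14Rik (also known as Oip5os1), Mir124a-1hg, C130071C03Rik, C230004F18Rik (also known as Cdr1os) and Mir9-3hg, with log2 fold changes from -0.88 to -0.40. Over all 9 related lists, 8 of 127 tested genes rose and 16 fell, below the shares of all tested genes given above for rises and close to them for falls. With library size alone as the scaling, 23 rose and 5 fell, and of all tested genes 23.2% rose and 7.55% fell. The counts also turned on single mice, from 2 to 23 rises and from 4 to 25 falls as each mouse was left out, with the highest of both without BCAS mouse 2, where 25.6% of all tested genes rose and 20.9% fell.

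In bulk cortex, fewer cells of a type and less RNA per cell cannot be told apart. Cell type markers moved with the group. All 15 microglial and macrophage markers rose, with a median log2 fold change of 3.45, and their summed level was 433 to 525 CPM in Sham and 2234 to 8945 CPM in BCAS mice. Of 10 astrocyte markers 8 rose (median 0.68), and the 11 blood leukocyte markers, of which 4 passed the filter on low counts, summed to 3.44 to 6.74 CPM in Sham and 8.81 to 121 CPM in BCAS mice. Of 16 neuronal markers 11 fell and 0 rose (median -0.71), and their sum was 12864 to 15356 CPM in Sham and 5031 to 11083 CPM in BCAS mice. Of the others, 2 of 12 oligodendrocyte markers, 3 of 10 endothelial and mural markers and 1 of 7 striatal markers rose, and 0 of 7 choroid plexus markers passed the test. The choroid plexus markers summed to 19.2 to 782 CPM in Sham and 41.9 to 76.3 CPM in BCAS mice, and relative to the Sham mean their mean log2 level was highest in Sham mouse 3, at 2.21. The striatal markers summed to 178 to 380.1 CPM in Sham and 299 to 631 CPM in BCAS mice, and on the same scale they stood at 1.47 in BCAS mouse 4, against 0.24 to 0.51 in the other BCAS mice and at most 0.65 in Sham mice. Their part in the members' values was not tested. No neuronal, microglial or astrocyte marker was at 0 in all Sham libraries.

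BCAS mouse 1 lay farthest from Sham and BCAS mouse 2 nearest to it both in the markers and in several members. Relative to the Sham mean, the mean log2 level of the neuronal markers was -1.42, -0.32, -0.67 and -0.68 in BCAS mice 1 to 4. On the same scale Rian stood at -1.04, -0.11, -0.56 and -0.46 and Miat at -1.32, 0.016, -0.61 and -0.65. For both, as for the markers, BCAS mouse 1 was lowest and BCAS mouse 2 highest. The microglial markers stood at 4.25, 2.30, 3.34 and 3.26 and Neat1 at 1.98, 0.56, 1.56 and 1.63, again with mouse 1 and mouse 2 at the ends. Gas5 stood at 0.46, 0.28, 0.31 and 0.53. The part of a change in cell types in these values was not tested.

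**Figure D4:**
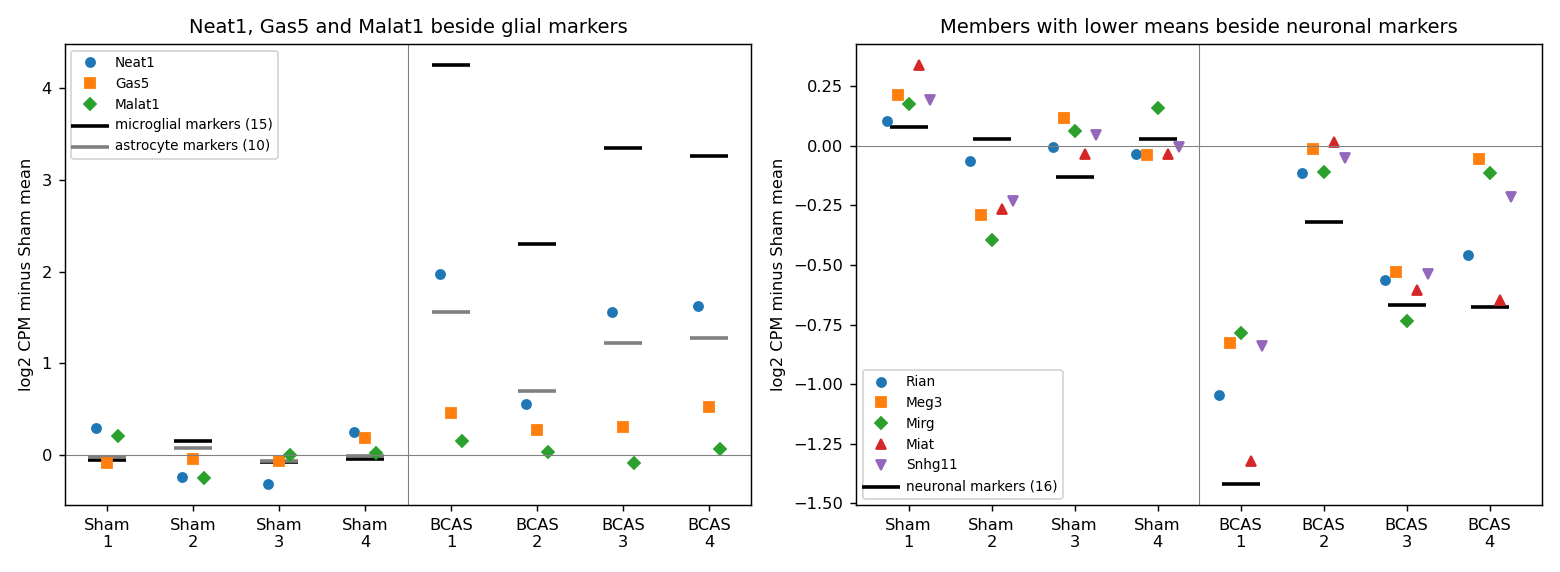
Log2 CPM of each member minus its Sham mean (y axis) in every library, as points, beside the mean of marker genes, as horizontal bars. Left, Neat1, Gas5 and Malat1 with microglial and astrocyte markers, and right, the 5 members with lower means with neuronal markers. BCAS mouse 2 lies nearest to Sham for Neat1, Rian, Miat and all 3 marker lists.

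To place each RNA beside the neuronal signal of the same tissue, its log2 CPM was set against the mean log2 CPM of the 16 neuronal markers in the same library. That mean was itself lower by 0.77 in BCAS mice, so a gene with no change in CPM stood 0.77 higher on this scale, and 94.6% of all tested genes had a higher mean in BCAS mice. The values are therefore given as a description, to be read against 0.77 and not against 0, and no p-value is drawn on. Neat1 differed by 2.20 and Gas5 by 1.16, both above that value, and Malat1, flat in CPM, by 0.82. For these 3 all 4 BCAS mice were above the highest Sham mouse, as they were for 61.3% of all tested genes. Meg3 differed by 0.42, Snhg11 by 0.36, Mirg by 0.33, Rian by 0.23 and Miat by 0.13. These 5 lay between 0, the value of an RNA that fell as much as the markers, and 0.77. The value of Miat was closest to 0, with SDs of 0.24 in Sham and 0.14 in BCAS mice. It moved to 0.035 without Sham mouse 2, 0.065 without BCAS mouse 2 and 0.22 without Sham mouse 1, and that of Mirg to 0.19 without Sham mouse 2.

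**Figure D5:**
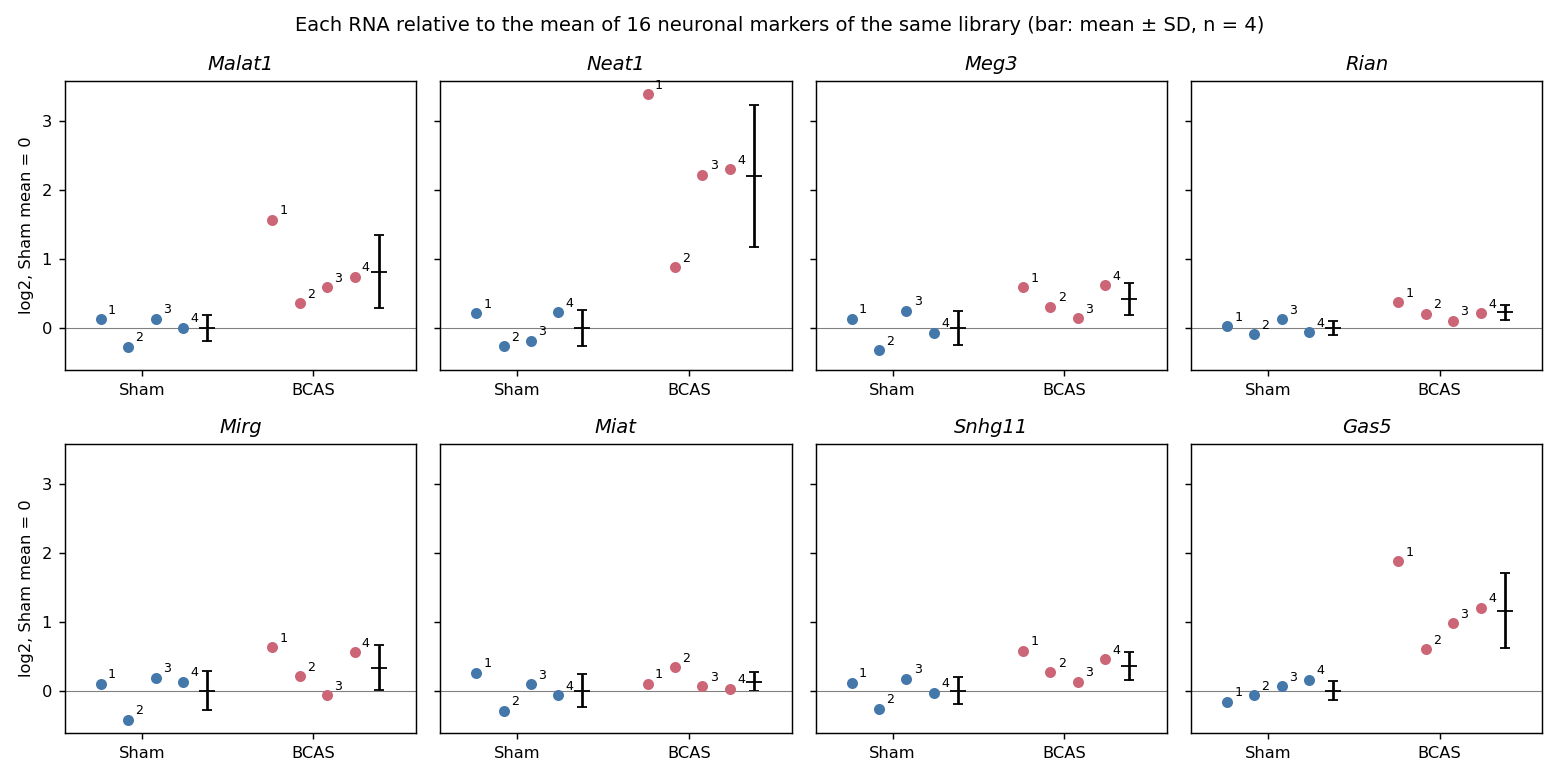
Log2 CPM of each RNA minus the mean log2 CPM of 16 neuronal markers in the same library, with the Sham mean set to 0 (y axis, shared), mouse numbers and mean ± SD (n = 4). A gene with no change in CPM would stand at a mean of 0.77 in BCAS mice, near Malat1 (0.82). Neat1 and Gas5 have higher means than that and the other 5 lower ones.

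The genes whose profile over the 8 libraries was closest to that of a member were named by the root-mean-square difference of their log2 CPM, centred on the Sham mean, among the 10940 or 10941 tested genes with at least 10 CPM and no shared exon bases. Neat1 was closest to Cped1 (0.13, log2 fold change 1.42) and Efemp2 (0.15, 1.45). Gas5 was closest to Ctsf (0.069, log2 fold change 0.34) and Ssbp1 (0.081, 0.45). Rian was closest to Eipr1 (0.040, log2 fold change -0.53) and Nlgn2 (0.047, -0.50), which both passed the edgeR test, with adjusted p-values of 0.0313 and 0.0493. Meg3 was closest to Snhg11 (0.069) and Celsr3 (0.097), Snhg11 to Trank1 (0.064) and Meg3, and Mirg to Snhg11 (0.12) and Meg3 (0.12). Miat was closest to Csmd2 (0.11) and Tmem145 (0.11). The groups enter this measure, so that it also ranks genes by a like difference between Sham and BCAS mice.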

How the data were processed

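RNA-seq was analysed for the right cerebral cortex of 4 Sham and 4 BCAS mice, grouped by the labels. The authors trimmed the reads, aligned them to mm10 with HISAT2, sorted them with SAMtools 1.9 and deposited raw counts of read pairs per gene. The table headers name featureCounts 2.0.1 and GENCODE vM20 with no strand option, whereas the submitters' processing notes name featureCounts 1.6.3. The members and the related lists were chosen with earlier results of these data known. Depth was 16759364 to 21794435 counts per library, and 3 counts, the limit that a count of 0 allows, were 0.138 to 0.179 CPM, for counting error only.

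Counts were tested with edgeR 4.0.16 in R 4.3.3 (TMM, filterByExpr with a minimum count of 10 and a minimum total of 15, quasi-likelihood F-test, no covariates), with Benjamini-Hochberg adjustment over 17136 genes. Log2 CPM used a prior count of 2. For ratios between members, group means were permuted exactly over the 70 arrangements of the mice (two-sided). The text names the 8 members, the list genes with the largest rise and fall past the test, and the 2 most similar genes of each member, except for Malat1, where they are not reported here. Other genes were named after their values were seen. Alternatives were other normalizations and filters, DESeq2 1.42.0, limma-voom and limma 3.58.1 on log2(CPM + 1), the replicate number as a block, a fold-change threshold, other marker summaries, and each mouse left out. The scripts were tested on simulated data. Sequences came from RefSeq (GRCm38.p6) and GENCODE vM21 (GRCm38). Neat1 has no window there. Plots used Python 3.11.15 with matplotlib 3.10.9.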

Additional observations from a re-analysis of the deposited data

Results flagged for a closer look

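In 38 groups of 4 mice, a single value was looked for that stood apart from the other 3 by Dixon's ratio at its critical value for 4 values, which chance alone meets in about 1 of 20 groups. It was met 2 times. Gas5 stood at 32.9 CPM in Sham mouse 4, against 27.3 to 28.1 CPM in the other Sham mice. Mirg relative to the neuronal markers stood at -6.19 (log2) in Sham mouse 2, the Sham mouse with the fewest Mirg counts (130).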

How the results depend on the processing

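Neat1 stayed past the threshold under the 9 alternatives with all mice and in all 8 fits without 1 mouse, and Meg3 and Mirg stayed short of it. Gas5 passed under the 9 alternatives, and leaving out 1 mouse gave log2 fold changes from 0.35 to 0.45. For Malat1 that range was -0.045 to 0.10, for Miat -0.83 to -0.38, for Snhg11 -0.51 to -0.25 and for Rian -0.66 to -0.36. Rian passed under DESeq2 (-0.51, adjusted p = 0.0193), limma-voom (-0.54, adjusted p = 0.0493) and limma on log2(CPM + 1) (-0.54, adjusted p = 0.0428). In each of these fits 1 member was thus lower, beside 18.2%, 13.7% and 14.8% of all tested genes. With a log2 fold change above 1 also required, 1 member was higher. Leaving out 1 mouse gave 1 to 2 members higher and 0 to 3 lower, while the share of all tested genes ran from 12.1% higher and 2.37% lower (without Sham mouse 1) to 25.6% and 20.9% (without BCAS mouse 2).

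With 5 neuronal markers in place of 16, a gene with no change in CPM stood at 0.83 instead of 0.77, and Neat1 at 2.26, Gas5 at 1.22, Malat1 at 0.87, Snhg11 at 0.41 and Rian at 0.28, so that their places relative to that value were as before. With the markers' median in place of their mean that value was 0.65, and Malat1 stood at 0.70, Snhg11 at 0.24, Mirg at 0.22, Rian at 0.11 and Miat at 0.016. With library size alone, which moved the median of all genes to 0.083, 23 related genes rose and 5 fell (23.2% and 7.55% of all tested genes). Under DESeq2 16 related genes rose, beside 22.1% of all tested genes, and without the filter 8 fell, beside 5.16% of all tested genes. Without 1 mouse 2 to 23 related genes rose and 4 to 25 fell. The cause was not tested.

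Sham and BCAS mice share replicate numbers, but same-numbered mice did not deviate together (correlations from -0.10 to 0.0013, 0 of 4 mice closest to their own number). The data thus gave no sign that the numbers pair the mice, though 4 pairs are too few to exclude it. With the replicate number as a block, 2 members were higher and 0 lower, as without it, and 5 related genes rose and 7 fell, beside 14.1% and 6.58% of all tested genes.

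With 4 mice per group, the exact tests cannot go below 0.0286 before adjustment, and the spread of BCAS mice limits the precision for all members but Gas5 and Malat1. Mirg rests on few counts. Counts per gene do not separate the forms of Neat1 or the strands of Miat.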
